A study of Mus musculus with 25 samples.

Results

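The genes described here are 10 that report and restrain signalling through the ERK pathway: the phosphatase genes Dusp4, Dusp5 and Dusp6, the Sprouty genes Spry1, Spry2 and Spry4, the Spred genes Spred1 and Spred2, and the ETS factor genes Etv4 and Etv5. They were taken by symbol from 55385 genes of the gene annotation, and all 10 were found and passed the filter on low counts that left 15247 genes for testing. RNA was sequenced from 5 murine melanoma cell lines in culture, with 5 libraries per line and 25 in all. WT31 came from Tyr::NrasQ61K/°; INK4a-/- mice, which express mutant Nras from the tyrosinase promoter and lack INK4a. D4M came from mice with Tyr::CreER and BrafCA, in which Cre driven by the tyrosinase promoter switches on mutant Braf, among other alleles. RET came from mice with a human RET transgene under the metallothionein promoter (MT/RET), HCmel12 from a primary melanoma of an HGF-CDK4(R24C) mouse, which makes additional hepatocyte growth factor and carries mutant Cdk4, and B16F10 luc2 is the luciferase-labelled B16F10 line, for which the study's methods name a mutation in Trp53, among others, and none in Braf, Kit or Nras. No line was treated, and all were harvested at 50% confluency. WT31, RET and B16F10 luc2 were kept in RPMI with 10% serum, HCmel12 in an RPMI mixture of its own with 10% serum, and D4M in Advanced DMEM/F-12 with 5% serum, so that for D4M and HCmel12 the medium and the line cannot be told apart. Each driver is represented by 1 line and the replicates are cultures of that line, so p-values measure the spread between cultures and not between tumours of one genotype.

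ERK is the last kinase of the chain that runs from receptor tyrosine kinases through RAS, RAF and MEK. Active ERK switches on genes whose products act back on the chain: dual-specificity phosphatases remove the activating phosphates from ERK, Sprouty and Spred proteins restrain the steps at RAS and RAF, and the ETV factors, which belong to the PEA3 group of ETS transcription factors, carry the signal on to further genes. In melanoma, where mutant NRAS or BRAF commonly drives the chain, these transcripts are widely read as an output measure of the pathway. The RNA levels given here are not a measurement of ERK phosphorylation.

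Total counts were between 24199083 and 25843286 per library. Levels are given as CPM, the counts of a gene relative to the total of its library, scaled by TMM factors, and a gene was called between 2 lines when the Benjamini-Hochberg adjusted p of the limma test on voom values was under 0.05. Melanocyte markers, 10 genes in all, summed to 12405 to 31372 CPM in the libraries of WT31, B16F10 luc2, RET and HCmel12 and to 6.59 to 60.7 CPM in D4M, where 2 of the 10, Ednrb and Kit, had no more than 3 counts in any library. The 9 fibroblast markers summed to 721 to 1396 CPM in D4M and to at most 107 CPM in each of the other lines. In D4M, Col3a1, Col1a2 and Col1a1 stood at 472, 354 and 144 CPM and Pdgfra and Pdgfrb at 59.5 and 47.4 CPM. Thy1, Dcn and Lum stood at 0.547 CPM or less there, and Postn was higher in WT31 than in D4M (32.6 and 13.2 CPM). Endothelial, leukocyte and keratinocyte markers summed to at most 39.1, 16 and 15.3 CPM in any library. D4M, a line from melanocyte-directed Cre, thus had melanocyte markers near 0. D4M replicate 1 had the melanocyte sum of 60.7 CPM and HCmel12 replicate 4 had one of 18290 CPM, each apart from the rest of its line. Without both libraries the calls of the members were the same in 9 of the 10 comparisons of lines. For WT31 against HCmel12 Spry1 gained a call (adjusted p = 0.048 in limma) and Spred2 lost it (adjusted p = 0.11). Nras stood at 167 ± 17.7 CPM (SD, n = 5) in WT31 and at 96.2 to 147 CPM in the other lines, and per transcript length at 430 ± 99.8 TPM in WT31 and 44.2 to 59.9 TPM in the others. Braf stood at 26.5 ± 1.06 CPM in D4M and at 24.8 to 70.1 CPM elsewhere. Cdkn2a, the INK4a locus, stood at 203 ± 17.7 CPM in HCmel12 and at no more than 2.83 CPM elsewhere, Hgf at 94.8 ± 14.2 CPM in HCmel12 and 2.63 CPM or less elsewhere, and Cdk4 and Trp53 were within 559 to 635 and 190 to 250 CPM. Mouse Ret had at most 3 counts in any library, RET included, whose transgene is the human gene.

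To see first how far the members differ among the lines, the 5 line means were compared in 1 test per gene. All 10 members showed a line effect, with adjusted p values of the moderated F test between 1e-20 and 2.2e-11, but so did 96.9% of all tested genes. What set the members apart from each other was the size. The distance from the lowest to the highest line mean on the log2 scale was 8.29 for Dusp5, 6.14 for Spry4, 5.08 for Etv5 and 4.90 for Etv4. It was 2.38 for Spry2, 2.15 for Spry1, 2.06 for Spred1, 1.99 for Dusp6, 1.53 for Dusp4 and 1.48 for Spred2, beside a median of 1.41 over all tested genes. The range of Dusp5 was wider than that of 93.7% of the tested genes and the range of Spry4 wider than that of 86.7%, whereas Spred2 and Dusp4 stood near the middle at 52.1% and 53.2%.

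**Figure D1:**
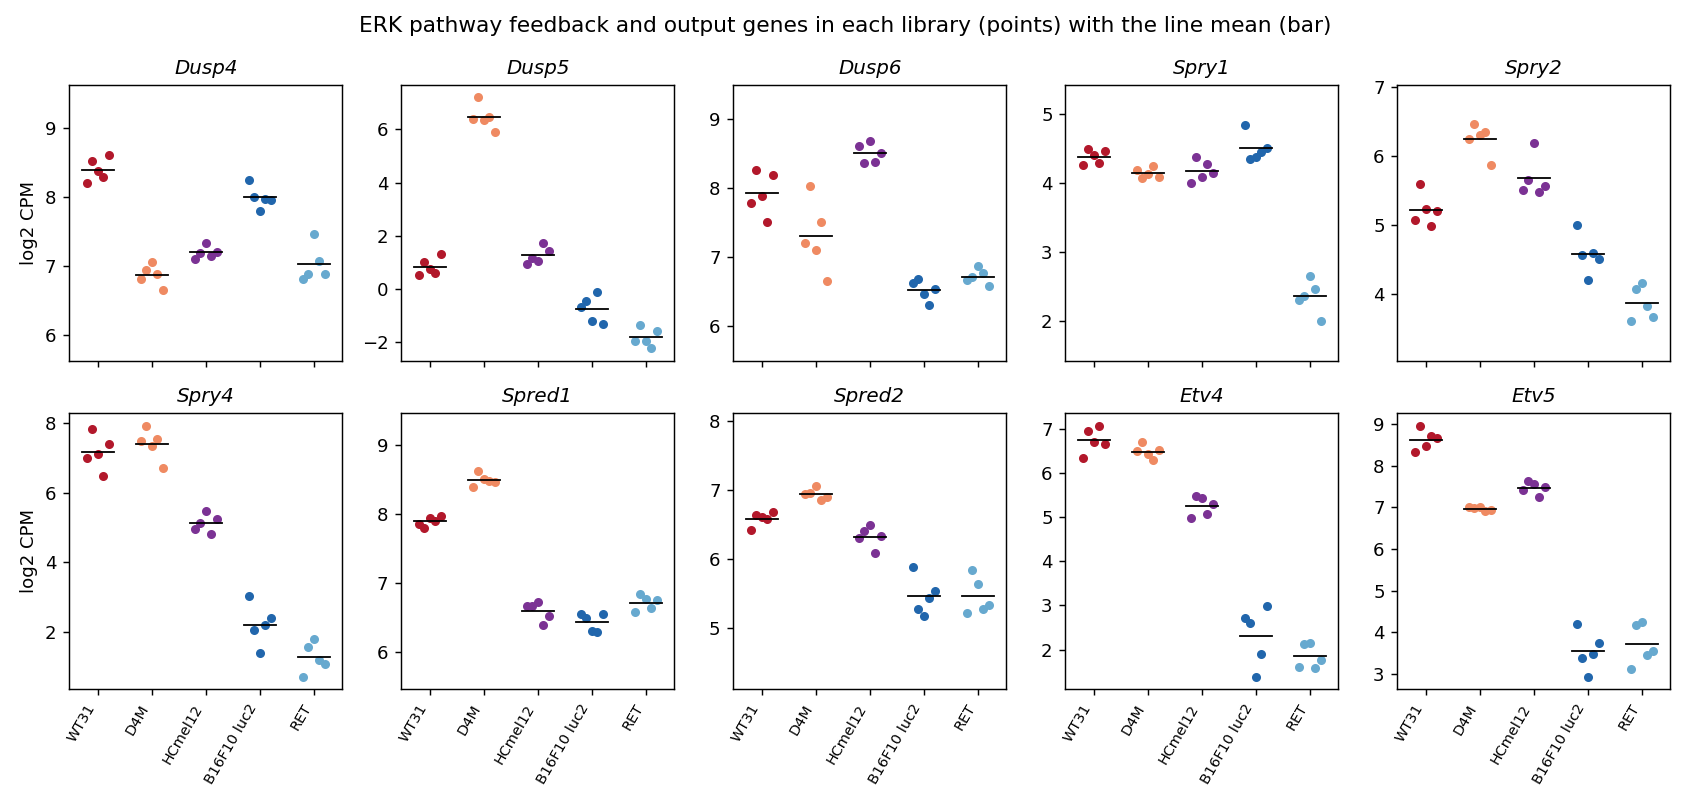
Level of each member in log2 CPM (vertical axis, each panel with its own range) in the 25 libraries, by line (horizontal axis); points are libraries and black bars line means. For Spry4, Etv4 and Etv5 the libraries of B16F10 luc2 and RET lie below all libraries of WT31, D4M and HCmel12, while Dusp5 is high in D4M alone.

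The Etv genes separated the lines into WT31, D4M and HCmel12 on one side and B16F10 luc2 and RET on the other. Etv4 (chr11:101769742-101785371, minus strand, GRCm38), a PEA3-group activator of transcription, was measured at 80.57, 124.4, 103.6, 134.8 and 101.4 CPM in the WT31 libraries and at 90.7, 103.7, 86.21, 78.23 and 91.92 CPM in those of D4M. HCmel12 gave 31.7, 44.76, 43.25, 33.72 and 39.13 CPM. B16F10 luc2 gave 6.508, 6.095, 2.598, 3.714 and 7.921 CPM and RET 3.005, 4.384, 4.453, 2.962 and 3.358 CPM. The ranges of WT31 and D4M overlapped, HCmel12 lay below both, and the last pair of lines lay below HCmel12 without overlap with it but overlapped with each other. WT31 and D4M did not differ past the threshold (1.19-fold, adjusted p = 0.066 in limma, 95% interval of the log2 difference −0.0017 to 0.51), but did with library size alone (adjusted p = 0.0012), in log2(TPM + 1) (adjusted p = 0.039) and without WT31 replicate 1 (adjusted p = 0.0081) or D4M replicate 2 (adjusted p = 0.046). D4M exceeded HCmel12 2.35-fold (adjusted p = 6.6e-09), and HCmel12 exceeded B16F10 luc2 7.60-fold (adjusted p = 1.7e-11). B16F10 luc2 and RET did not differ past the threshold (1.39-fold, adjusted p = 0.21, interval −0.16 to 1.12), but did in edgeR (adjusted p = 0.037), in DESeq2 (adjusted p = 0.015) and without B16F10 luc2 replicate 3 (adjusted p = 0.049).

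Etv5 (chr16:22381309-22439719, minus strand), the close relative of Etv4, had the same pair of lines at the bottom but another order at the top. WT31 gave 321.3, 496.6, 352.9, 416.2 and 404.7 CPM, HCmel12 169.2, 198.5, 186.7, 151.2 and 180.2 CPM, and D4M 128.8, 126.5, 127.5, 120.7 and 122.1 CPM. In B16F10 luc2 the values were 18.25, 10.37, 7.628, 11.02 and 13.38 CPM, and in RET 8.658, 17.91, 19.07, 10.86 and 11.69 CPM. None of the first 3 lines overlapped with another line, B16F10 luc2 and RET overlapped with each other, and the D4M libraries were the most alike of any line for this gene. WT31 exceeded HCmel12 2.23-fold (adjusted p = 8.7e-09), HCmel12 exceeded D4M 1.41-fold (adjusted p = 0.0013) and D4M exceeded RET 9.56-fold (adjusted p = 3.1e-15), while RET and B16F10 luc2 did not differ past the threshold (1.12-fold, adjusted p = 0.57, interval of B16F10 luc2 minus RET −0.60 to 0.28). Per transcript length, the pair summed to 297 ± 50.6 TPM in WT31, 133 ± 13.2 TPM in D4M (n = 4, because 1 D4M library had no TPM here), 105 ± 16 TPM in HCmel12, 10.0 ± 3.54 TPM in B16F10 luc2 and 9.05 ± 3.02 TPM in RET. Etv4 made up 68.0 ± 2.57% of that sum in D4M but 38.3 ± 1.37% in HCmel12 and 45.3 ± 3.22% in WT31. Etv5 shared 30.27% of its 31-base words with Gm4798, to which at most 2.86 counts were assigned in any library.

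Among the phosphatases, Dusp5 was high in 1 line, D4M. Dusp5 (chr19:53529109-53542431, plus strand), which encodes a nuclear phosphatase specific for ERK, reached 84.63, 147.5, 83, 88.44 and 59.15 CPM in D4M. In the other lines the library values were 1.886 to 3.271 CPM in HCmel12, 1.404 to 2.433 CPM in WT31, 0.384 to 0.903 CPM in B16F10 luc2 and 0.191 to 0.372 CPM in RET, the last from 4.77 to 10 counts. D4M thus stood apart from all other libraries, by 36.9-fold from the next line HCmel12 (adjusted p = 1.4e-14 in limma). It is also the line with melanocyte markers near 0 and the highest sum of fibroblast markers, whose part in this and the other D4M differences was not tested. HCmel12 and WT31 overlapped and did not differ past the threshold (1.35-fold, adjusted p = 0.37), WT31 exceeded B16F10 luc2 3.02-fold (adjusted p = 0.010), and B16F10 luc2 and RET, although their libraries did not overlap, did not differ past the threshold in limma (2.08-fold, adjusted p = 0.21, interval of the log2 difference −0.37 to 2.49) but did in edgeR (adjusted p = 0.034), in DESeq2 (adjusted p = 0.0040), in log2(TPM + 0.1) (adjusted p = 0.0058) and without D4M replicate 2 (adjusted p = 0.044). Of the 31-base words of Dusp5, 21.16% also occur in the opposite-strand gene AC137853.2, to which at most 2.22 counts were assigned.

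Because Dusp5 is the member with the widest range, its upstream sequence is shown beside that of Dusp6, which all 5 lines express. Each is the stretch of 250 bases before the start site in RefSeq (GRCm38.p6), 5′ to 3′ on the strand of the gene, for Dusp5 chr19:53528895-53529144 and for Dusp6 chr10:99262981-99263230, both on the plus strand. Capitals mark matches to the motifs searched on both strands, which here are AGGAAG and GGGCGG, read on either strand, and the CArG box, the site of serum response factor.
Dusp5: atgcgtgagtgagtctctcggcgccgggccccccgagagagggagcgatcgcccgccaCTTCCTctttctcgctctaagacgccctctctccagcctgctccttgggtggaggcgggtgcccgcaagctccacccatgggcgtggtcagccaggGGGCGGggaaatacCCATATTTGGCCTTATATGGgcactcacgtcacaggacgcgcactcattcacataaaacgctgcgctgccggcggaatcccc
Dusp6: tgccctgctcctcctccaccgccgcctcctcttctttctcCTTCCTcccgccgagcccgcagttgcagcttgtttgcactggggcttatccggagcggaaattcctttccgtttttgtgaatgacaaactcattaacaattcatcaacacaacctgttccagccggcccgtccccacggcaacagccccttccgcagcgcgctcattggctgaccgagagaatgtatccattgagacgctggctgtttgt
The Dusp5 window held 2 adjoining CArG boxes that begin 82 and 72 bases before the start site. In the 32851 RefSeq windows of 300 bases, which run 50 bases past the start site, 1.63% held a CArG box and 6 windows held 2 or more, and of the 8 windows found for 7 of the members only that of Dusp5 held one. Of 20 other ERK output genes 11 had a window, and of these Egr2 alone held a CArG box. The rest, among them Egr1, Egr3 and Ier2, had no window, and sequence outside the windows was not searched. AGGAAG, a core of ETS sites, occurred in the windows of Dusp5, Dusp6, Spred2 and Etv5 and in 35.4% of all windows, and GGGCGG in those of Dusp5, Spred1, Spred2, Spry1 and Etv5 and in 35.7% of all windows. CCGGAA, another ETS core, occurred in the Spry2 window, 33 bases past the start site, and in 14.9% of all windows. The ETS octamer CCGGAAGT, TGANTCA (AP-1), TGACGTCA (CRE), TGAATGAA and TGAATGGA (capicua) and TATAAA, held by 3.89%, 7.81%, 1.79%, 1.30%, 1.21% and 13.6% of all windows, were not found in those of the members. These matches describe the sequence and not the binding of a factor, and no window was found for Dusp4, Spry4 or Etv4.

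Dusp6 and Dusp4 were expressed in all 5 lines and ordered them differently. Dusp6 (chr10:99263231-99267489, plus strand), the cytoplasmic ERK phosphatase, was highest in HCmel12 with 389.5, 327.3, 411.2, 330.8 and 364.2 CPM. WT31 followed with 181.4 to 306.8 CPM and D4M with 147.3, 261.6, 137.2, 181.2 and 99.8 CPM, the widest spread of any line. RET gave 95.29 to 116.3 CPM and B16F10 luc2 78.49 to 101.9 CPM. HCmel12 did not overlap with WT31 and exceeded it 1.50-fold (adjusted p = 0.0024), although not past the threshold in log2 TPM (adjusted p = 0.060). WT31 exceeded D4M 1.54-fold (adjusted p = 0.0012) and D4M exceeded RET 1.50-fold (adjusted p = 0.0027), in both cases with overlapping libraries. The latter call was lost in log2(TPM + 1) with no filter (adjusted p = 0.063). RET and B16F10 luc2 did not differ past the threshold (1.15-fold, adjusted p = 0.35), but did in a fit of these lines alone (adjusted p = 0.023). Dusp4 (chr8:34807297-34819894, plus strand), a nuclear phosphatase of several MAP kinases, had its second highest mean in B16F10 luc2 and its lowest in D4M. Its libraries ranged from 294.4 to 390.2 CPM in WT31, 224.2 to 305.2 in B16F10 luc2, 138.2 to 162.2 in HCmel12, 113.2 to 176.9 in RET and 100.6 to 133.7 in D4M. WT31 exceeded B16F10 luc2 1.32-fold (adjusted p = 0.00089) and B16F10 luc2 exceeded HCmel12 1.74-fold (adjusted p = 1.2e-07), whereas HCmel12, RET and D4M did not differ past the threshold from the next in order (adjusted p = 0.15 and 0.17). Without RET replicate 3, the highest library of that line, HCmel12 exceeded RET past the threshold (adjusted p = 0.0097), and with library size alone RET exceeded D4M past it (adjusted p = 0.0024). Per length, Dusp4 made up 73.5 ± 2.33% of the summed TPM of the 3 phosphatase genes in B16F10 luc2 and Dusp6 71.0 ± 1.83% in HCmel12. Dusp5 made up 26.3 ± 2.45% in D4M and at most 0.53% in any other line.

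**Figure D2:**
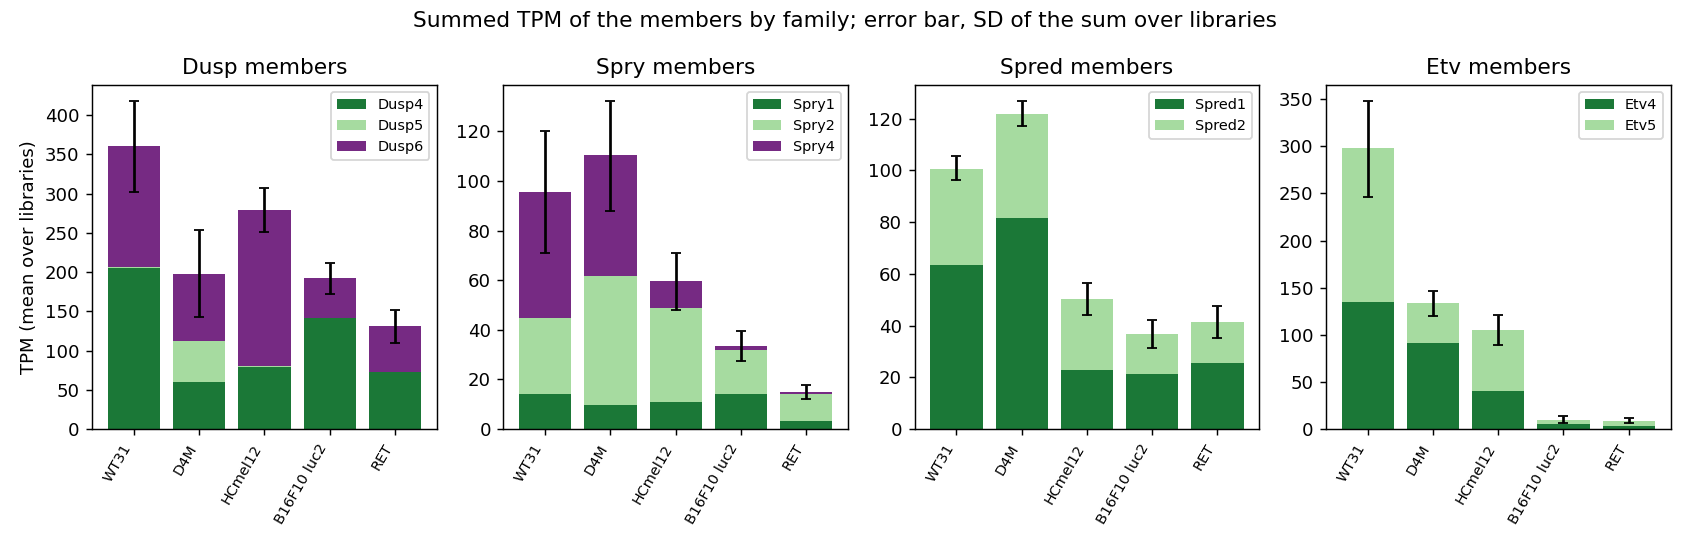
Mean TPM of the members (vertical axis) stacked by family in each line (horizontal axis; 5 libraries per line, 4 for D4M); error bars are the SD of the family sum. The Etv sum falls from 297 TPM in WT31 to 9.05 TPM in RET, while the Dusp sum spans 360 to 131 TPM between the same lines.

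The Sprouty genes, whose products are recruited to receptor signalling complexes and restrain RAS activation, each followed another pattern. Spry1 (chr3:37639947-37644598, plus strand) differed little across 4 lines, at 22.9 ± 3.41 CPM in B16F10 luc2, 20.8 ± 1.50 in WT31, 18.2 ± 1.87 in HCmel12 and 17.7 ± 0.92 in D4M (SD, n = 5 each). RET stood below with 4.942, 5.148, 6.259, 5.476 and 3.975 CPM, which overlapped with no other line and lay 3.45-fold under D4M (adjusted p = 9.5e-13 in limma). No other neighbours in that order differed past the threshold (adjusted p from 0.051 to 0.74). The step from WT31 to HCmel12, at 0.051, passed it without replicate 1 of B16F10 luc2, 1 or 4 of WT31, 3 or 5 of RET, or 2 or 4 of HCmel12 (adjusted p from 0.022 to 0.048), with library size alone (adjusted p = 0.017) and in log2(TPM + 1) (adjusted p = 0.0045). With library size alone HCmel12 also exceeded D4M past the threshold (adjusted p = 0.048). Further apart in the order, B16F10 luc2 exceeded D4M 1.29-fold (adjusted p = 0.00086). Of the 31-base words of Spry1, 23.1% occur in Gm42922 on the opposite strand, to which at most 16.9 counts were assigned against 103 or more for Spry1. Spry2 (chr14:105891947-105896819, minus strand) fell in even steps instead. It was measured at 75.98, 88.23, 79.53, 81.81 and 58.74 CPM in D4M, at 45.44, 50.56, 73.01, 44.65 and 47.69 CPM in HCmel12 and at 31.64 to 48.45 CPM in WT31. B16F10 luc2 gave 18.48 to 32.04 CPM and RET 12.18 to 17.93 CPM. Each line overlapped with the next, except that B16F10 luc2 and RET did not. All 4 steps passed the threshold, with folds of 1.48, 1.38, 1.56 and 1.64 (adjusted p from 0.00045 to 0.0048), but in log2 TPM the step from HCmel12 to WT31 did not (adjusted p = 0.12).

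Spry4 (chr18:38586247-38601415, minus strand) set the lines at the same 3 levels as Etv4. WT31 gave 128.2, 230.3, 138.3, 88.79 and 170.4 CPM, D4M 180.3, 243.5, 161.2, 187.7 and 104.8 CPM, and HCmel12 30.9, 35.31, 44.71, 28.19 and 38.08 CPM. B16F10 luc2 gave 8.135, 4.105, 2.598, 4.539 and 5.229 CPM and RET 1.621, 2.935, 3.428, 2.242 and 2.084 CPM. The libraries overlapped only between WT31 and D4M and between B16F10 luc2 and RET. D4M and WT31 did not differ past the threshold (1.18-fold, adjusted p = 0.28 in limma), and the sign of this difference turned in log2 TPM (0.05 for WT31 minus D4M, adjusted p = 0.87). Without D4M replicate 5, the lowest library of that line, D4M exceeded WT31 past the threshold (adjusted p = 0.041). WT31 exceeded HCmel12 4.11-fold (adjusted p = 3.7e-09) and HCmel12 exceeded B16F10 luc2 7.54-fold (adjusted p = 1.5e-07). B16F10 luc2 and RET did not differ past the threshold (1.93-fold, adjusted p = 0.15, interval of the log2 difference −0.17 to 2.07), but did in edgeR (adjusted p = 0.013), DESeq2 (adjusted p = 0.0021), log2(TPM + 0.1) (adjusted p = 0.015) and a fit of these lines alone (adjusted p = 0.011). Per length, Spry4 was 52.2 ± 5.83% of the summed TPM of the 3 Sprouty genes in WT31 and 43.3 ± 5.20% in D4M. In HCmel12 it was 17.9 ± 1.48%, and in RET and B16F10 luc2 5.01 ± 0.701% and 4.36 ± 1.04%. The sum itself was 110 ± 22.1 TPM in D4M, 95.5 ± 24.6 in WT31, 59.4 ± 11.4 in HCmel12, 33.5 ± 6.17 in B16F10 luc2 and 14.9 ± 2.91 in RET.

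The Spred genes had the highest levels in D4M and WT31, and Spred1 had the smallest spread between cultures of any member, with an SD within lines of 0.107 on the log2 scale against 0.164 to 0.459 for the others. Spred1 (chr2:117121374-117182279, plus strand), whose product brings neurofibromin to the membrane to switch RAS off, was measured at 336, 394.1, 363.4, 356.4 and 353.7 CPM in D4M. WT31 gave 221.8 to 250.4 CPM, and RET (95.32 to 113.7), HCmel12 (83.84 to 105.7) and B16F10 luc2 (78.41 to 93.55) followed closely on each other. D4M and WT31 overlapped with no other line, D4M exceeded WT31 1.52-fold (adjusted p = 3.9e-09) and WT31 exceeded RET, the next line, 2.27-fold (adjusted p = 1.3e-14). RET and HCmel12 did not differ past the threshold (1.09-fold, adjusted p = 0.12), and HCmel12 exceeded B16F10 luc2 1.11-fold (adjusted p = 0.046), a call that was lost in log2 TPM (adjusted p = 0.27), with no filter (adjusted p = 0.096) and without replicate 3 or 4 of B16F10 luc2, 1, 3 or 4 of WT31, 3 or 4 of RET, or 1, 2 or 3 of HCmel12 (adjusted p from 0.051 to 0.13). Spred2 (chr11:19924375-20024026, plus strand), of like function, stood at 123 ± 6.50 CPM in D4M, 96.1 ± 6.28 in WT31, 80.4 ± 8.22 in HCmel12, 44.7 ± 9.04 in B16F10 luc2 and 44.6 ± 8.74 in RET (SD, n = 5 each). D4M exceeded WT31 1.28-fold (adjusted p = 0.0033), but not past the threshold with library size alone (adjusted p = 0.26) or in log2 TPM (adjusted p = 0.46). HCmel12 exceeded B16F10 luc2 1.82-fold (adjusted p = 1.7e-07), and the difference between B16F10 luc2 and RET lay within −0.24 to 0.24 on the log2 scale (95% interval, adjusted p = 0.98). The call of WT31 over HCmel12 (1.20-fold, adjusted p = 0.032) was lost without replicate 1 or 4 of HCmel12 or 2, 3 or 5 of WT31 (adjusted p from 0.050 to 0.10), with DESeq2 size factors (adjusted p = 0.050) and in DESeq2 (adjusted p = 0.069).

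Across the 10 comparisons of lines, most members were lower in RET and in B16F10 luc2 than in each of the other 3 lines. WT31 exceeded RET in 10 of 10 members, where 73.2% of all tested genes were called, 36.8% as higher and 36.4% as lower in WT31. It exceeded B16F10 luc2 in 9 of 10 and was lower in none, where 72.8% of all genes were called, 36.4% in each direction. The median differences of the members were 1.70 and 1.43 on the log2 scale, beside −0.0017 and −0.0012 over all genes. Against D4M, RET was lower in 9 members and higher in none (77.1% of all genes called, 38.8% higher and 38.3% lower in RET), and B16F10 luc2 was lower in 8 and higher in 2 (77.7% called, 38.8% higher and 38.9% lower), with medians of −2.08 and −1.86. Against HCmel12, RET was lower in 8 and higher in none (67.2% called, 34.0% higher and 33.3% lower), and B16F10 luc2 was lower in 8 and higher in 2 (69.1% called, 35.3% higher and 33.8% lower), with medians of −1.82 and −1.55. The members in which B16F10 luc2 was higher than D4M and HCmel12 were Dusp4 and Spry1 in both cases.

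The lines at the upper end did not share such a direction. Between WT31 and D4M, 4 members were higher and 4 lower in WT31 (76.1% of all genes called, 37.5% higher and 38.6% lower), with a median difference of 0.0013. WT31 was higher in Dusp4, Dusp6, Spry1 and Etv5 and lower in Dusp5, Spry2, Spred1 and Spred2. The call of Spry1 was lost without replicate 2 of WT31 or replicate 2 or 5 of D4M (adjusted p from 0.054 to 0.063) and in DESeq2 (adjusted p = 0.053). WT31 was higher than HCmel12 in 6 members and lower in Dusp6 and Spry2 (70.4% called, 36.1% higher and 34.3% lower), and D4M was higher than HCmel12 in 6 and lower in Dusp4, Dusp6 and Etv5 (72.5% called, 36.8% higher and 35.7% lower). The median differences of WT31 and D4M from HCmel12 were 0.71 and 0.59, beside 0.0054 and 0.0036 over all genes. B16F10 luc2 was higher than RET in Dusp4, Spry1 and Spry2 and lower in Spred1 (51.5% called, 25.2% higher and 26.2% lower), and the other 6 members were not called, while edgeR and DESeq2 each called 7 of the 10. These comparisons share libraries. With library size alone, 62.4% of the genes called between WT31 and D4M were higher in WT31, instead of 49.3%, and the share of higher genes went from 50.3 to 60.2% for RET against D4M and from 50.8 to 39.6% for D4M against HCmel12. In log2(TPM + 1) it was 64.5% for WT31 against D4M, and 63.6% instead of 51.3% for WT31 against HCmel12. B16F10 luc2 and RET were the 2 lines with the lowest means in 7 of 10 members, as they were in 17.1% of all tested genes.

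**Figure D3:**
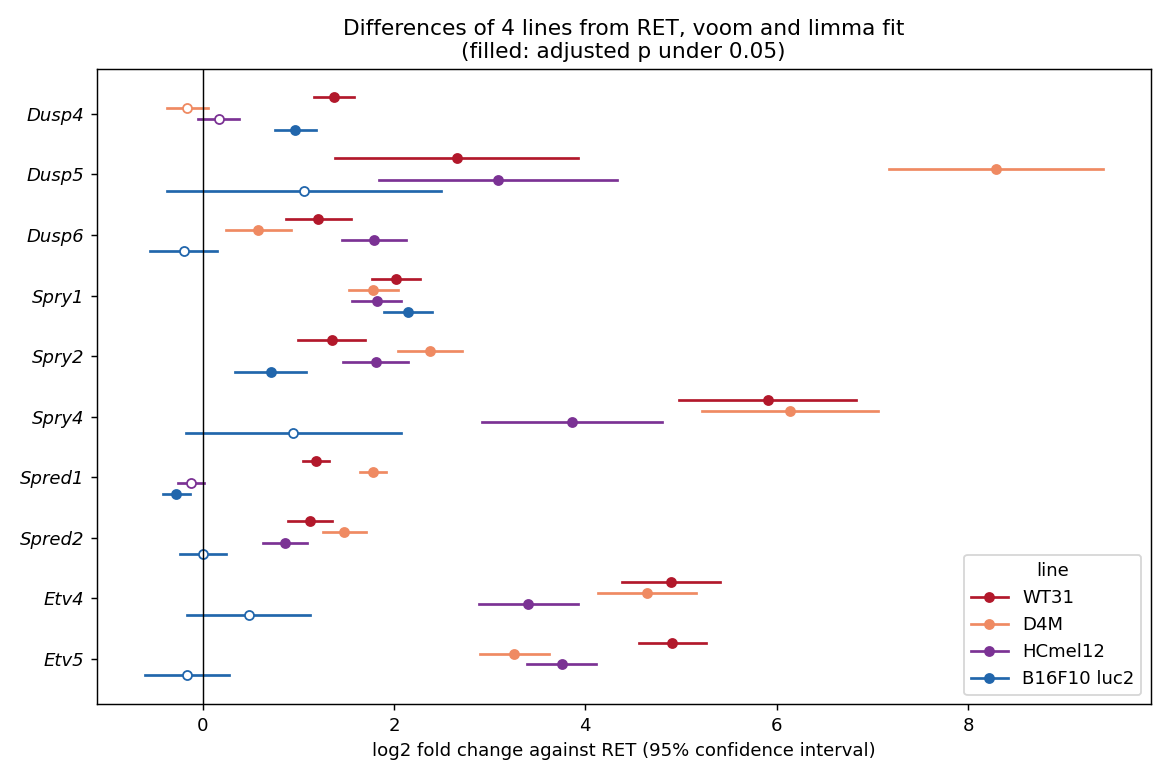
Log2 fold change of each member (rows) in 4 lines against RET (horizontal axis), with 95% confidence intervals from the limma fit; filled points have an adjusted p under 0.05. All 10 points of WT31 lie right of 0, and B16F10 luc2 lies near 0 for Spred2, Etv5 and Dusp6.

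The study named D4M and HCmel12 low metastatic for the liver and the other 3 lines high or intermediate metastatic. Spry2 was the member called in the same direction in all 6 comparisons between these sets, being lower in each of the latter 3 lines than in both low metastatic lines, as were 6.40% of all tested genes, although in log2 TPM the difference between WT31 and HCmel12 did not pass the threshold (adjusted p = 0.12). Dusp5, Dusp6 and Spred2 were lower in 5 of the 6, with Dusp6 and Spred2 higher in the other one, and no member was higher in all 6, as 6.53% of all genes were. Since WT31 and D4M carry altered Nras and Braf, their line means were also set against those of the other 3 lines. The differences on the log2 scale were positive for all 10 members, as for 50.5% of all tested genes: 4.42 for Spry4, 4.09 for Dusp5, 3.48 for Etv4, 2.89 for Etv5, 1.61 for Spred1, 1.02 for Spry2 and for Spred2, 0.58 for Spry1, 0.37 for Dusp6 and 0.23 for Dusp4. With 2 lines against 3 the smallest exact permutation p (two-sided) is 0.1, reached by Spred1, so no difference between driver classes could pass the threshold. The p was 0.2 for Spry4, Etv4 and Spred2 and between 0.3 and 0.9 for the rest. WT31 and D4M were the 2 lines with the highest means in 4 of 10 members, as in 14.9% of all tested genes. They did not both share in each of these differences. D4M had the lowest line mean of Dusp4, and for Dusp5 the mean of WT31 (0.83 on the log2 scale) lay below that of HCmel12 (1.26). HCmel12 also lay above D4M for Etv5 (7.46 and 6.97) and above WT31 for Spry2 (5.68 and 5.22). Spry1 was highest in B16F10 luc2 (4.50). HCmel12 stood between the other lines for Spry4, Etv4 and Spred2, and above both WT31 and D4M for Dusp6.

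The members also deviated together from culture to culture within a line. After the mean of its line was subtracted from each log2 CPM value, the Pearson correlation over the 25 libraries was positive for 45 of 45 pairs of members, with a median of 0.50 and a range from 0.019 (Dusp5 with Spry1) to 0.91 (Spred2 with Etv5). Between the members and all other tested genes 74858 of 152370 such correlations were positive, with a median of −0.0059. The calculation was made after the values had been seen. Pairs share their genes and the deviations sum to zero in each line, so it is given as a description. Single libraries show it: in B16F10 luc2 all 10 members lay above the line mean in replicate 1 and 0 of 10 in replicate 3, 0 of 10 did so in replicate 1 of either WT31 or RET, and in D4M 9 of 10 lay above it in replicate 2 and 1 of 10 in replicate 5. Etv5, for example, was at 18.25 CPM in the first and 7.628 CPM in the second of those B16F10 luc2 libraries. Other libraries were mixed: 4, 5 and 5 of 10 members lay above the line mean in D4M replicates 1, 3 and 4. In HCmel12 the number was between 2 and 8 in each library. The median correlation was between 0.44 and 0.55 when any 1 line was left out, with 43 or 44 of 45 pairs positive. It was 0.51 with library size alone and 0.545 in log2 TPM over 24 libraries, with 44 of 45 pairs positive in each. The same median was 0.10 for 9 relatives of the members, 0.15 for 20 other ERK output genes, 0.077 for 18 genes of the ERK cascade and 0.69 for the melanocyte markers. The mean deviation of the members correlated at 0.52 with that of 10 nuclear effectors and repressors and at 0.51 with that of the relatives. The correlation was 0.42 with 19 adaptors and regulators of RAS and 0.37 with the other output genes. It was 0.15 with the cascade genes and 0.11 with 18 receptors and ligands. With the 7 tested genes of the driver check it was −0.36, with the fibroblast markers −0.14 and with the melanocyte markers −0.089. For the log2 total count and the TMM factor it was 0.33 and −0.019, and their part in the pattern was not tested. Each of 15247 tested genes was also ranked by its correlation with that mean, which includes the member itself. The deviations were not scaled, so members with a large SD within lines weigh more in the mean, most of all Spry4 (0.459). Ranks of members and of other genes are therefore not on equal terms. Spry4, Spry2 and Etv5 ranked 1, 2 and 3, but Dusp6 103, Spred1 175, Spry1 256 and Dusp5 559. Plk3 (0.84), Sik1 (0.80) and Smad7 (0.78), which are not members, ranked 4, 5 and 7.

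**Figure D4:**
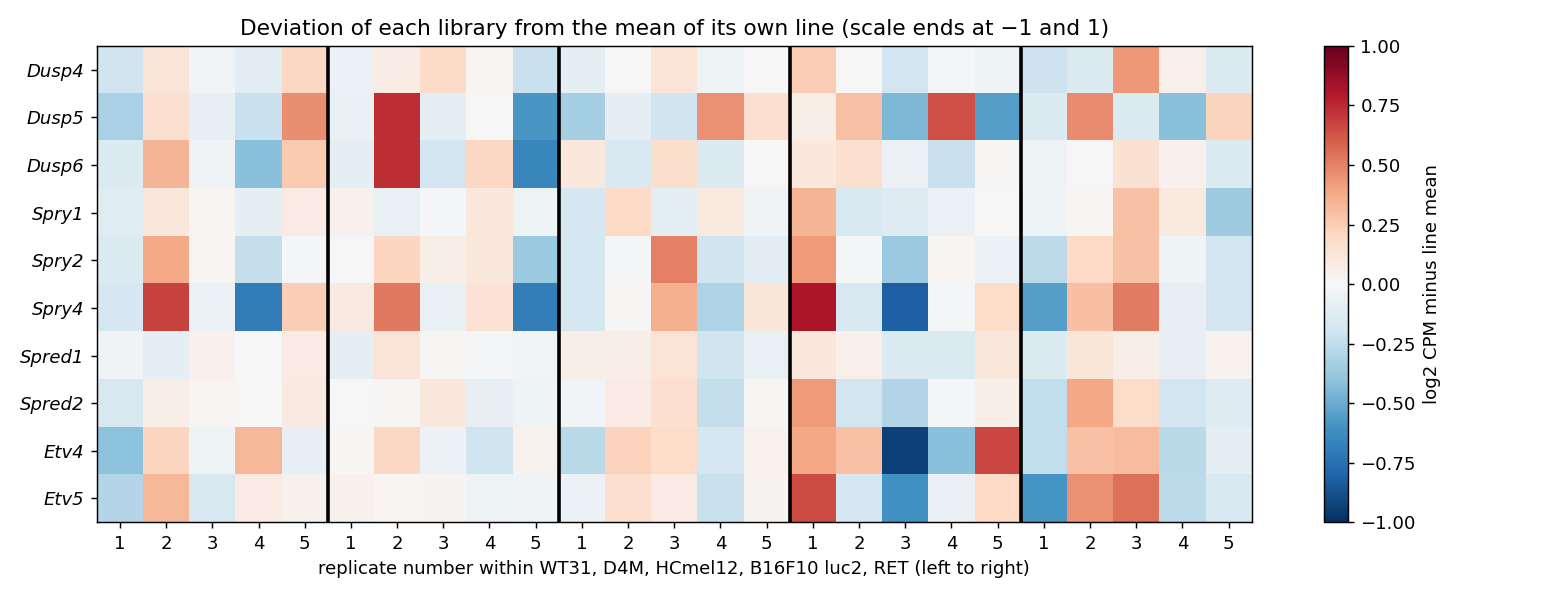
Deviation of log2 CPM from the mean of the line (colour, scale ends at −1 and 1) for the 10 members (rows) in the 25 libraries (columns, 5 per line). Some columns are of 1 colour, such as replicates 1 and 3 of B16F10 luc2, where 10 and 0 of the 10 members lie above the line mean. Others are mixed, such as D4M replicates 1, 3 and 4, where 4, 5 and 5 do.

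Across all libraries, without removal of the line means, 41 of 45 pairs of members had a positive correlation of log2 CPM, with a median of 0.63. The 25 libraries form 5 groups, so these values mostly reflect 5 line means. The closest pair was Spry4 with Etv4 at 0.98, and the lowest was Dusp4 with Dusp5 at −0.36. By the same measure the genes most like Spry4 among all tested genes were Etv4, Cers6 and Runx2, each at 0.98, and Runx2, for example, stood at 29.4 CPM in WT31, 30.7 in D4M, 12.2 in HCmel12, 5.40 in B16F10 luc2 and 4.16 in RET. Those most like Dusp5 were Traf5 (0.99), Csnk1a1 (0.98) and Socs5 (0.98), and Traf5 stood at 26.2 CPM in D4M and 0.459 to 2.19 CPM in the other lines. Those most like Etv5 were Ogdhl (0.99), Ak5 and Serinc5 (0.98 each), and Serinc5 stood at 102 CPM in WT31, 50.0 in D4M, 44.5 in HCmel12 and 4.33 and 5.34 in B16F10 luc2 and RET.

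Other genes around the pathway were taken from lists written from general knowledge. Of 9 tested relatives of the members, D4M was higher than HCmel12 in 6 and lower in 3 (36.8% and 35.7% of all genes), and RET was lower than WT31 in 5 and higher in 3 (36.8% and 36.4% of all genes). In B16F10 luc2, 5 relatives were higher and 3 lower than in D4M (38.8% and 38.9% of all genes), with a median of 0.47 on the log2 scale. Against HCmel12 the counts were also 5 and 3 (35.3% and 33.8% of all genes), with a median of 1.21. RET was higher than D4M in 3 relatives and lower in 5 (38.8% and 38.3% of all genes), with a median of −1.085. It was higher than HCmel12 in 4 and lower in 3 (34.0% and 33.3% of all genes), with a median of −0.21. WT31 was higher than B16F10 luc2 in 4 relatives and lower in 4 (36.4% of all genes in each direction). The difference from the members was not tested. The relatives with the widest ranges were Dusp2, a phosphatase of immune and stress responses, which was lowest in WT31 at 0.311 ± 0.147 CPM and between 2.51 and 12.8 CPM elsewhere, Dusp9, which was highest in B16F10 luc2 at 5.30 ± 0.958 CPM and at most 0.893 CPM elsewhere, and Spred3, which was highest in D4M at 76.5 ± 4.23 CPM, against 17.8 in HCmel12, 8.12 in WT31, 3.46 in RET and 3.85 in B16F10 luc2. Of 20 other genes known to rise with ERK activity, 16 were lower in WT31 than in D4M, 14 lower in B16F10 luc2 and 16 lower in RET, and 2 were higher in each case (38.6%, 38.9% and 38.3% of all genes were lower). Their widest ranges were those of the EGF receptor ligands Ereg and Areg and of the AP-1 subunit Fosl1. In D4M these stood at 237 ± 54.2, 199 ± 20.2 and 226 ± 32.4 CPM, and in each other line at no more than 0.22 CPM. WT31 exceeded RET in 7 of the 20 and was lower in 4 (36.8% and 36.4% of all genes). It exceeded B16F10 luc2 in 5 and was lower in 7 (36.4% of all genes in each direction). Among the members these counts were 10 and 0 and 9 and 0. The difference between the 2 lists was not tested.

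**Figure D5:**
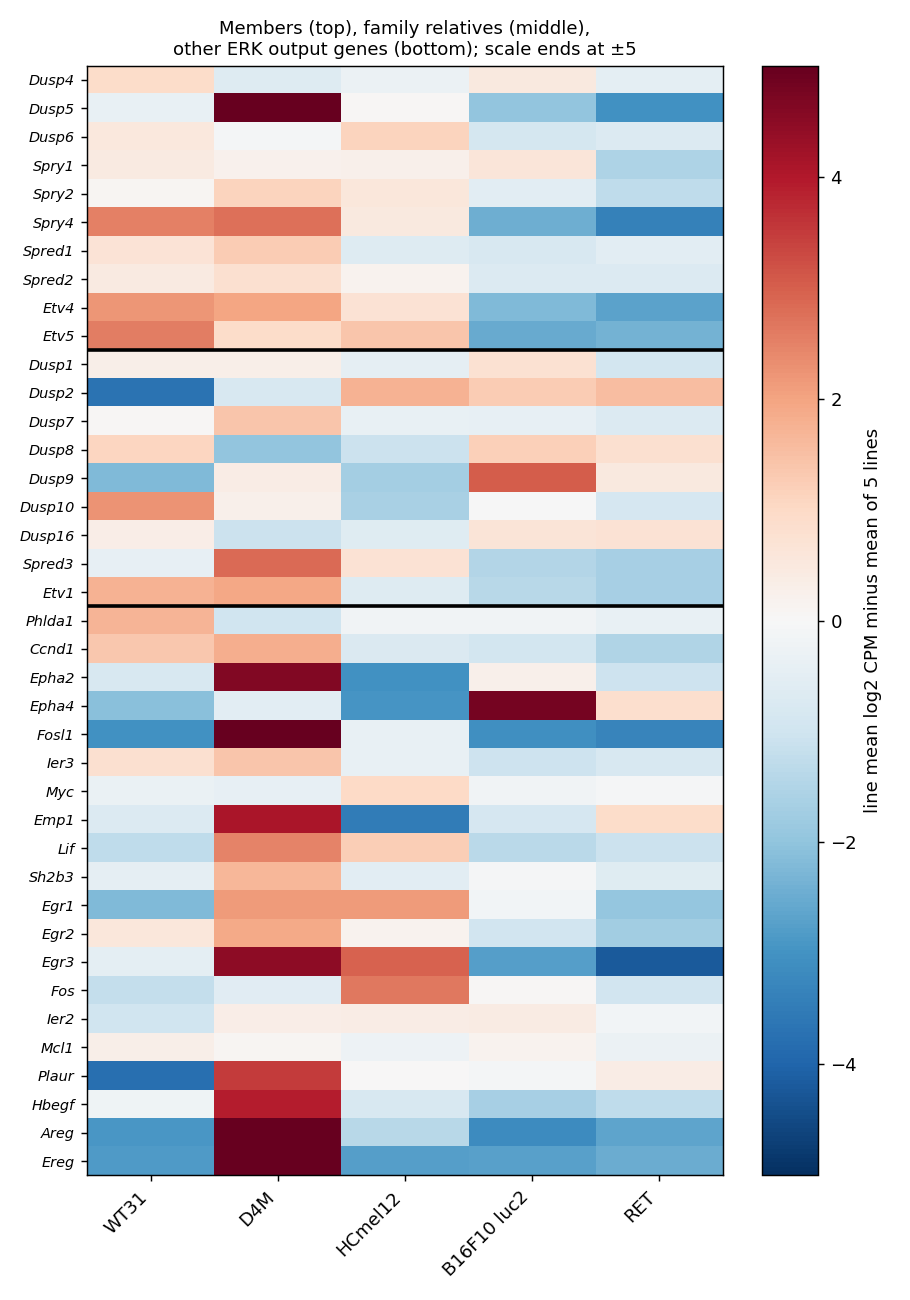
Line means of log2 CPM minus the mean of the 5 lines (colour, scale ends at −5 and 5) for members, their tested relatives and other ERK output genes (rows) in the 5 lines (columns). Among the members Spry4, Etv4 and Etv5 are low in B16F10 luc2 and RET, and the bottom block is red mostly in D4M.

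Further lists hold the cascade upstream of the members and other nuclear targets, and are given for WT31 against RET, where 36.8% of all genes were higher and 36.4% lower. Of 18 tested genes of the ERK cascade itself, WT31 exceeded RET in 10 and was lower in 6, with a median difference of 0.14. The widest ranges in that list were those of Peak1, a pseudokinase scaffold, at 453 ± 65.9 CPM in D4M and 19.5 to 28.3 CPM elsewhere, of the kinase gene Rps6ka1, at 41.7 ± 5.97 CPM in HCmel12 and 6.39 in WT31, and of the scaffold gene Ksr1, at 22.8 ± 2.17 CPM in WT31 and 5.44 in RET. Of 19 adaptors and regulators of RAS, WT31 was higher than RET in 8 and lower in 4. There Lrig1, a restrainer of ERBB receptors, stood at 325 ± 11.7 CPM in D4M and at 15.7 CPM or less elsewhere, the exchange factor Rasgrf1 at 55.5 ± 5.54 CPM in D4M and at 0.0242 CPM or less elsewhere, and the exchange factor Rasgrp3 at 89.1 ± 10.4 CPM in B16F10 luc2, 61.4 in RET and 4.31 CPM or less in the other lines. Of 10 nuclear effectors and repressors, WT31 was higher than RET in 6 and lower in 1, and 7 were lower in B16F10 luc2 and 7 in RET than in D4M (38.9% and 38.3% of all genes). Ets2 was highest in D4M at 108 ± 10.9 CPM and WT31 at 74.9 and between 13.9 and 19.3 CPM elsewhere, Elk3 ran from 242 CPM in D4M to 34.8 in B16F10 luc2, and Ets1 from 466 CPM in RET to 90.9 in D4M. Of 18 tested receptors and ligands, WT31 was higher than RET in 10 and lower in 4. Kit stood at 531 ± 104 CPM in WT31, 120 in HCmel12 and 6.89 CPM or less elsewhere, Hgf was the ligand of HCmel12 given above, and Pdgfrb stood at 47.4 ± 14.5 CPM in D4M and 13 CPM or less elsewhere. In these bulk cultures a lower level per cell and fewer cells with the transcript cannot be told apart.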

How the data were processed

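RNA-seq was done on 25 cultures, 5 of each of 5 murine melanoma lines. Per the labels and the study's methods, the authors trimmed reads with Trim Galore 0.6.4 and quantified them with kallisto (0.4.6 in the submitters' processing notes) against GRCm38.p6 with GENCODE transcripts. The authors deposited, per library, estimated counts per gene, which are not normalised and need not be whole, and TPM, which also takes transcript length into account. The annotation release and the step from transcripts to genes were not given in the sources used here. TPM of D4M replicate 1 was not used here.

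Estimated counts were filtered (filterByExpr), scaled with TMM factors (edgeR 4.0.16), transformed with voom and fitted with limma 3.58.1 in R 4.3.3, with 1 mean per line over all libraries, no covariate and Benjamini-Hochberg adjustment over 15247 genes in each of 10 pairwise comparisons, at 0.05. All adjusted p values are from this limma fit unless another scaling, filter, choice of lines, left-out library or replicate block is named. Others named are edgeR's quasi-likelihood test and DESeq2 1.42.0 (both on rounded counts), log2(TPM + 1) and log2(TPM + 0.1). Fits were tested on simulated data, but no result of that test is given or used here. A share of reads common to related genes was judged from 31-base words. Total counts of 24199083 to 25843286 put 3 counts at 0.111 to 0.138 CPM. The members and lists were chosen with earlier results of these data known. The text names all members, up to 3 called genes per other list with the widest range of line means, the genes of the driver check (some alleles and genes of the lines are not reported here) and, for 3 members, the 3 genes with the highest correlation. The motifs AGGAAG and GGGCGG and the CArG box, and the deviations within lines, were added after values had been seen. Alternatives were other scalings, filters, tests and thresholds, TPM, a replicate block and leaving out libraries.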

Additional observations from a re-analysis of the deposited data

Results flagged for a closer look

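Of 50 sets of 5 libraries (10 members in 5 lines), 1 held a library far from the others, where chance gives about 1 in 20. Spry2 in HCmel12 replicate 3 stood at 73.01 CPM and the other 4 libraries of the line at 44.65 to 50.56 CPM, and on the log2 CPM scale its gap to the nearest library took up 0.747 of the whole range, above Dixon's critical value of 0.71. In the same library 8 of 10 members lay above the mean of the line.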

How the results depend on the processing

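The number of members called stayed within 1.5 times the reported one in all 250 counts from 25 fits that each left out a library, ranging from 7 to 9 for WT31 against D4M and against HCmel12, 9 to 10 for B16F10 luc2 against HCmel12, 8 to 9 for RET against HCmel12 and 4 to 5 for B16F10 luc2 against RET, and holding at 10, 9, 9, 10 and 9 in the other 5 comparisons. For B16F10 luc2 against RET it went from 4 to 7 with edgeR and to 7 with DESeq2. With an absolute log2 difference of at least 1 asked for, it was 4 for WT31 against D4M, 5 for WT31 against HCmel12, 6 for B16F10 luc2 against HCmel12, 1 for B16F10 luc2 against RET and 5 for D4M against HCmel12. With both libraries that stand apart left out, a choice made after seeing the data, all 10 counts were as reported, although for WT31 against HCmel12 Spry1 was gained (adjusted p = 0.048 in limma) and Spred2 lost (adjusted p = 0.11). All line effects stayed called under the alternatives run, as nearly all genes are, and the driver differences could not pass the threshold under any. Of the single differences under other settings, 1135 kept direction and call, 20 gained and 19 lost the call and 15 changed sign, none of them called as reported. The cause was not tested.

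The difference of Spred2 between B16F10 luc2 and RET, 0.0029 as reported, was −0.05 with library size alone, −0.0048 with DESeq2 size factors, −0.0035 in DESeq2, −0.01 with no filter, −0.0004 with at least 10 counts in every library, −0.004 with only those 2 lines, −0.00089 with the replicate block, −0.00044 without the libraries that stand apart, −0.02 in each of the 3 TPM settings and −0.11 to 0.10 when a library was left out. That of Spry4 between WT31 and D4M was 0.05 in each TPM setting, that of Spry1 between WT31 and B16F10 luc2 was 0.00031 in log2(TPM + 0.1), and that of Spry1 between D4M and HCmel12 was −0.08 to 0.01 when a library was left out.

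Same-numbered replicates of different lines shared only a number: of 50 pairs, 1 had a correlation of deviations over 0.1, and 6 of 25 libraries correlated best with their own number. The replicate block changed 1 call, that of Dusp5 between B16F10 luc2 and RET (1.07, adjusted p = 0.014 in limma). With library size alone the median difference over all genes, within 0.01 of 0 as reported, was 0.22 for WT31 against D4M, 0.15 and 0.21 for B16F10 luc2 and RET against D4M and −0.17 for D4M against HCmel12. Asking for at least 10 counts in every library left out Dusp5. Depth limits Dusp5 in RET and B16F10 luc2, which rests on 4.77 to 21.9 counts per library.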
